A study of Mus musculus with 12 samples.

Results

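Expression was examined in 2 stretches of mouse chromosome 1 that lie at a distance of 10 to 20 Mb on either side of Uhmk1, the gene of the kinase KIS, in newborn brains with and without KIS. Members were chosen by position alone. They are the main (exonic) probesets of the exon array whose start lies from 152.13 to below 162.13 Mb (the centromeric side) or above 182.13 to 192.13 Mb (the telomeric side), except the 59 probesets of Cacna1e and Glul. There are 1477 such probesets, 780 on the centromeric and 697 on the telomeric side, of 223004 main probesets in the table. All but 3 carry a gene symbol, for 105 symbols. The samples were whole brains of newborn female mice, 6 of genotype KIS +/+ (wildtype) and 6 of genotype KIS -/- (KIS-ko), 1 littermate of each genotype from each of 6 litters. No agent was given. All 12 animals came from a line backcrossed to C57BL6/N, which had earlier been kept on a mixed C57Bl/6-129SV background, and the KIS-ko animals carried the knock-out allele in all tissues. Whole tissue was used, so fewer cells of a type and less RNA per cell cannot be told apart.

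KIS is a serine/threonine kinase that phosphorylates the splicing factor SF1 and is abundant in the brain. When a gene is targeted in cells of one strain and the allele is then backcrossed to another, DNA next to the target is inherited with it, and the piece that stays linked grows shorter with each generation of recombination. Animals homozygous for the targeted allele can therefore differ from their wildtype littermates in nearby sequence too. Sequence variants can change the level of a transcript, and they can also change how well a short array probe binds its target. Neither the strain origin of each stretch nor the effect of a variant was measured, so the loss of KIS and a difference in linked DNA cannot be told apart near Uhmk1. The question for these stretches is at which distance the differences between the genotypes around Uhmk1 come down to the level of the rest of the genome. The stretches hold genes of many kinds, among them a laminin, regulators of small G proteins, proteins of the nuclear envelope, neuronal adhesion proteins and a mitochondrial aminoacyl-tRNA synthetase.

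Differences were densest at a few loci, and the sequences upstream of the genes of 2 of them are shown because most or all probesets of their genes were lower in KIS-ko brains. On the centromeric side this held for Glt25d2, described further on, and for Swt1 (1200016B10Rik in the table), whose sequence is shown and which codes for an RNA endonuclease of nuclear mRNA quality control. On the telomeric side the neighbours were Rab3gap2, a subunit of a complex that acts on the vesicle G proteins Rab3 and Rab18, Iars2, the mitochondrial isoleucyl-tRNA synthetase, and Bpnt1, a phosphatase of sulfate metabolism. The sequences are those of RefSeq for GRCm38.p6, 5′ to 3′ on the strand of the gene, except that the gap is on the plus strand. The table does not name its own build, and its positions differ from these. The upstream sequences end at the last base before the annotated gene, at chr1:151428498-151428685 (minus strand) for Swt1 and chr1:185203918-185204087 (plus strand) for Rab3gap2. The annotated Iars2 and Bpnt1 genes start head to head, with 8 bases between them, shown in capitals within chr1:185329409-185329438.
Swt1: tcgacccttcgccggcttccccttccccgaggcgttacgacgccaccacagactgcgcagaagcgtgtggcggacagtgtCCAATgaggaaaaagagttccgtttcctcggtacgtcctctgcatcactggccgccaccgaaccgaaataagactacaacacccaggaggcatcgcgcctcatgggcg
Rab3gap2: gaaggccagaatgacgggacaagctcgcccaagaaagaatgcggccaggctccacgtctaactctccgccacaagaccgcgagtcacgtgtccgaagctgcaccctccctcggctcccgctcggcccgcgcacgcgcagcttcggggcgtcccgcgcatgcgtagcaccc
Iars2-Bpnt1 gap: gcggggcaagaGCAAGGGCggggttttccg
The capitals in the Swt1 sequence mark a CCAAT box. This motif (CCAAT, searched on either strand) is present in 26.4% of the same windows of 32851 mouse promoters. It was not found in the Rab3gap2 window of 170 bases, where 23.3% of promoters hold it. An ETS core (CCGGAA) was in neither of these windows and is held by 7.31% and 6.39% of promoters in the Swt1 and Rab3gap2 windows. A GC box (GGGCGG) was not found in either one, against 22.4% and 19.5% of promoters. The 30 bases around the gap held 1 GC box, which begins within the capitals, as did 9.64% of promoters at the same positions, and neither a CCAAT box (5.11%) nor an ETS core (2.84%). The windows held 19 and 21 CpG dinucleotides for Swt1 and Rab3gap2. Rab3gap2 and Iars2 face each other and overlap by 115 bases at their 3′ ends, so these 3 genes form 1 uninterrupted row.

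The signal of each probeset was analysed as log2(signal + 16), and differences are KIS-ko minus wildtype on this scale, which understates the change of dim probesets. Of the members, 1414 passed the limit on the relative standard deviation (at most 0.4 in both genotypes), 752 on the centromeric and 662 on the telomeric side. The median member signal was 816 and 640 on the 2 sides against 588 over all probesets tested, and 55.1% and 45.6% of members exceeded 713, the 95th percentile of intron controls, against 44.4% of all probesets tested. Uhmk1 itself had a value of 10.97 ± 0.057 in wildtype and 8.85 ± 0.15 in KIS-ko brains (SD, n = 6 each), in accord with the labels (log2 difference -2.11, SE 0.068, limma adjusted p = 2.9e-07). The median difference over all probesets tested was -0.040, and by litter it ran from -0.12 in litter 6 to 0.071 in litter 4, the one litter above 0 (litters are numbered as in the labels). Of 5 neuronal markers 4 were measured and all 4 were above the intron control limit, and of the 3 liver markers none was above it. In no list of neurons, astrocytes, the oligodendrocyte lineage, microglia, choroid plexus, meninges, endothelium, erythroid cells or liver did a gene have an unadjusted p under 0.05, and the median differences of the lists lay between -0.088 and 0.051.

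No member probeset on either side passed the adjusted threshold of 0.05 in limma (lowest adjusted p = 0.328 on each side), where 0.00484% of all probesets did. With variances moderated by trend and robust estimation, 2 probesets passed on each side, which belong to Rgl1, Lamc1 and Iars2. In that setting 92 of all 206773 probesets passed, against 10 in the main fit. An unadjusted p under 0.05 was found for 76 centromeric members (10.1%) and 86 telomeric members (13%), against 6.63% of all probesets tested. With the arrays as deposited, the excess was in members with less signal in KIS-ko brains, 60 and 70 of them. That is 130 of 1414 over both sides, where 4.72% of all probesets were lower in this way. In the other direction there were 16 on each side, against a background of 1.91%. The table as a whole also leaned towards lower values. With arrays centred on their medians, the shares were 10.9% and 10.6%, against 6.28% of all probesets in that setting. Of these members, 46 were lower and 36 higher on the centromeric side, and 42 were lower and 28 higher on the telomeric side. The share of all probesets in each direction was not computed for centred arrays, so the excess there cannot be given by direction. The shares of both sides stayed above that of all probesets in each of the 17 alternative settings. Litter 4 weighed on these shares, which were 19.9% and 22.2% without it, against a background of 16.1%. Without litter 6 they were 5.98% and 7.55%, against 3.86%, and without litter 2 they were 6.78% and 8.46%, against 4.65%.

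The flanks, which are the stretches within 10 Mb of Uhmk1 and leave out Uhmk1 itself, had larger shares. They were 13.5% on the centromeric and 27.8% on the telomeric flank, with 1 and 2 probesets past the adjusted threshold. Chromosome 1 beyond 20 Mb had 7.39% and the other chromosomes together 6.42%. The share of each side thus lay between that of its flank and that of the chromosome beyond, with the wider step on the telomeric part. Probesets whose 6 KIS-ko arrays all lay below or all above the 6 wildtype arrays were counted too. On the telomeric part there were 57 in the flank (5.51%) and 2 on the side (0.302%). On the centromeric part there were 16 in the flank (1.94%) and 4 on the side (0.532%). Chromosome 1 beyond 20 Mb had 22 (0.239%), and over all probesets tested the share was 0.174%. Each flank thus exceeded its side, but 2 and 4 probesets are too few to set the sides apart from the chromosome beyond. The 6 member probesets without overlap, all lower in KIS-ko brains, included 1 each in Glt25d2, Ralgps2, Rab3gap2 and Parp1.

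Along the chromosome the share did not decline evenly. On the telomeric part it was between 27.3% and 36.1% in each 1-Mb window from Uhmk1 to 6 Mb, 5.66% in the next window, 30.4% from 7 to 8 Mb, and 11.5% in the last window of the flank. From 10 to 14 Mb, where 30 genes lie, it was 7.54% (27 of 358 probesets), near the background. It then came to 31.1% and 36.8% in the windows from 14 to 16 Mb and to 17.9% in the window after them, and from 17 to 20 Mb it was 5.83% (7 of 120). On the centromeric part the window next to Uhmk1 had 49.3%, and the windows from 3 to 9 Mb had 3.85% to 11.4%. The last window of that flank, from 9 to 10 Mb, had 30.3%. Past the inner boundary the share was 5.97% from 10 to 13 Mb (8 of 134), 20.5% from 13 to 14 Mb (17 of 83), 4.23% from 14 to 17 Mb (9 of 213) and 16.1% from 17 to 19 Mb (39 of 242). It was 3.75% in the outermost window. These stretches were drawn after the windows had been seen and are a description only. By windows of 5 Mb the centromeric side held 10.3% (outer) and 9.81% (inner) and the telomeric side 12.3% (inner) and 14.5% (outer), so on neither side was the inner part clearly the higher one.

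**Figure D1:**
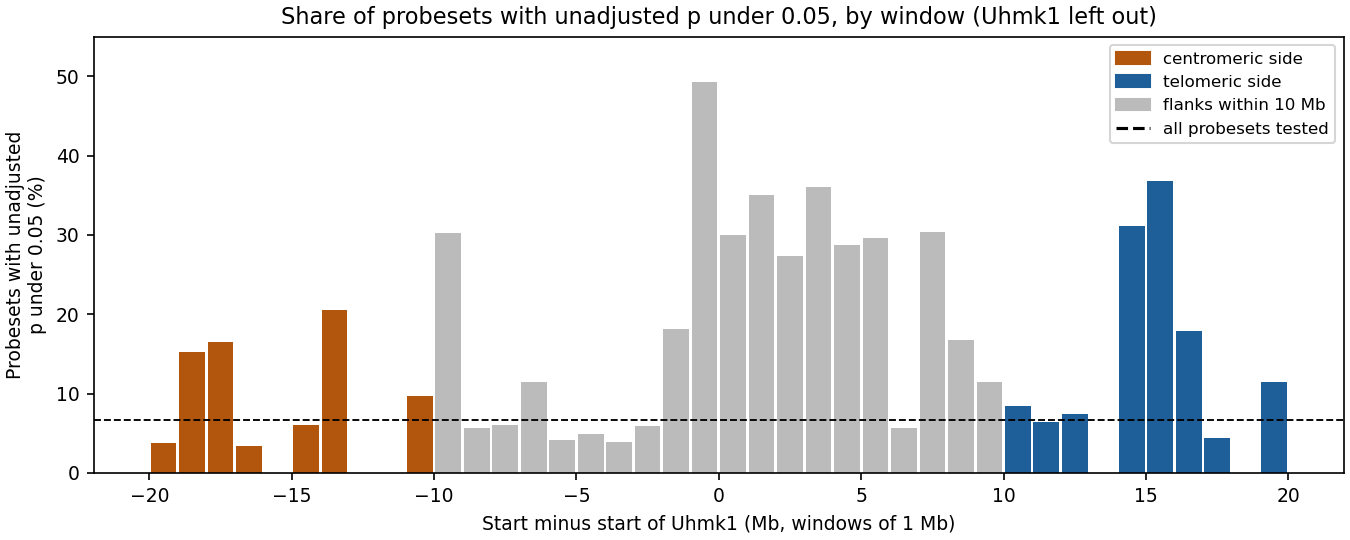
Share of tested probesets with an unadjusted p under 0.05 (%, vertical axis) in 1-Mb windows by distance from Uhmk1 (Mb, horizontal axis; negative values are centromeric). The dashed line is the share of all probesets tested (6.63%), the flanks are grey, and the members' windows stand highest at 14 to 16 Mb on the telomeric side (31.1% and 36.8%) and at 13 to 14 Mb on the centromeric side (20.5%).

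The members with an unadjusted p under 0.05 were spread unevenly over the genes. On the centromeric side 34 of the 76 belonged to Swt1, Glt25d2, Ralgps2, Lamc1 and Rgl1, and 26 genes held at least 1. On the telomeric side 48 of the 86 belonged to Rab3gap2, Iars2, Psen2, Spata17, Bpnt1 and Ptpn14, and 27 genes held at least 1. Probesets of 1 gene share their transcript and are not independent of each other.

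**Figure D2:**
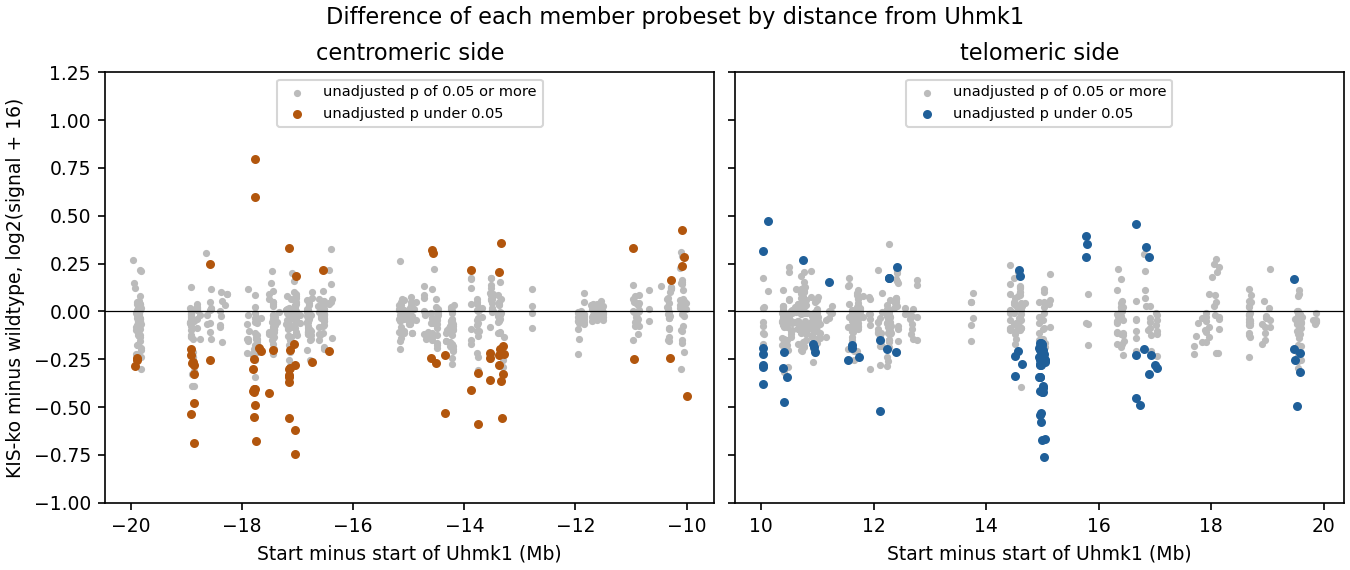
Difference between KIS-ko and wildtype (log2(signal + 16), vertical axis) of each of the 1414 member probesets tested, by distance of its start from Uhmk1 (Mb, horizontal axis). Coloured points have an unadjusted p under 0.05 (76 centromeric, 86 telomeric); they are densest at 15 Mb on the telomeric side.

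Measured per litter, the members' mean difference was small on both sides. Relative to the median of all probesets it was -0.014 ± 0.028 on the centromeric side (SD, n = 6 litters, of which 4 were below 0; p = 0.25 by exact permutation of the signs of litters, two-sided). On the telomeric side it was -0.021 ± 0.0072 and below 0 in 6 of 6 litters, which gave an exact p of 0.03125, the smallest possible with 6 litters. This mean includes the adjoining genes Rab3gap2, Iars2 and Bpnt1, with 28, 26 and 11 of the 662 probesets. Their gene differences were -0.22, -0.24 and -0.20, against a median of -0.040 over all probesets. The mean was not computed without them, so a shift of the side as a whole is not shown. The sides themselves differed by 0.0063 ± 0.021 (centromeric minus telomeric, from -0.024 to 0.035 by litter, exact p = 0.5), so a difference between them was not detectable with 6 litters.

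The size of the differences in either direction was compared by a spread ratio. This is, for each litter, the root mean square of the members' differences divided by that of probesets on other chromosomes. It was 0.991 ± 0.056 on the centromeric and 1.01 ± 0.047 on the telomeric side (SD, n = 6; exact sign-flip p of the log2 ratio, 0.719 and 0.656). Among the telomeric members above the intron controls the log2 ratio was 0.15 ± 0.085 (exact sign-flip p = 0.03125), so this result depends on the dim probesets. The flanks stood higher, at 1.17 ± 0.053 and 1.33 ± 0.057, each above 1 in 6 of 6 litters. The flank exceeded the side by 0.24 ± 0.063 on the centromeric and by 0.40 ± 0.12 on the telomeric part (log2, higher in 6 of 6 litters, exact sign-flip p = 0.03125 each). The sides differed from each other by -0.027 ± 0.089 in the log2 ratio (from -0.12 to 0.10 by litter, exact p = 0.5). Of 14 such tests over litters, flanks included, 6 had the smallest p the design allows, which after Benjamini-Hochberg adjustment over the 14 was 0.0729.

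**Figure D3:**
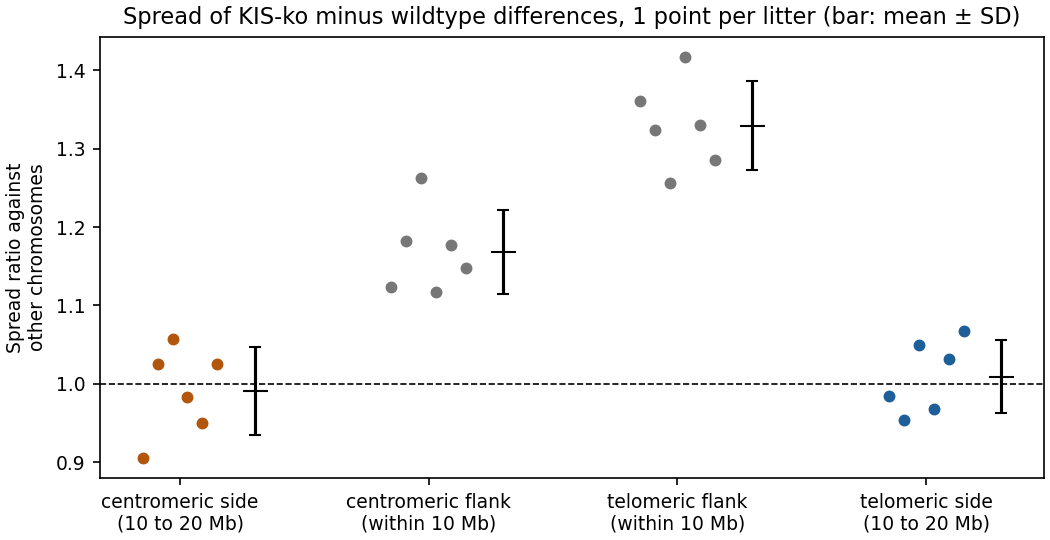
Spread ratio of KIS-ko minus wildtype differences against other chromosomes (no unit, vertical axis) in 4 stretches of chromosome 1. Each point is 1 of 6 litters and the bars are mean ± SD; both sides lie around 1 (dashed), and all litters of both flanks lie above it.

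Differences that recur from litter to litter were looked for by correlating the member probesets' differences between litters, which share no array. Over the 15 pairs of litters the median r was 0.184 on the centromeric side (from -0.26 to 0.51) and 0.171 on the telomeric side (from -0.29 to 0.48). It was 0.306 and 0.345 on the flanks, where every pair was above 0, and 0.050 on other chromosomes (from -0.26 to 0.38). Litter 4 was the one that went against the rest on the sides, with a median r of -0.15 and -0.16 with the others, and it did so on other chromosomes too (-0.25). On the flanks it was 0.11 and 0.26. Probesets are not replicates, so no p is given.

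At the level of genes, 50 genes were measured on the centromeric and 51 on the telomeric side, and none passed the adjusted threshold in limma (0.00579% of 17279 genes did, which is Uhmk1 alone). An unadjusted p under 0.05 was found for 6 of 50 genes (12%) and 7 of 51 genes (13.7%), against 6.16% of all genes. All 6 on the centromeric side and 6 of the 7 on the telomeric side were lower in KIS-ko brains, where 4.34% of all genes were lower in this way. In no member gene did the 6 values of KIS-ko and the 6 of wildtype stand fully apart. The median difference was -0.041 and -0.044, against -0.036 over all genes.

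On the centromeric side the lowest p belonged to Glt25d2 (Colgalt2 in RefSeq), a galactosyltransferase that modifies hydroxylysine in collagen. Its wildtype values ran from 7.85 to 8.21 with a median of 8.06, and its KIS-ko values from 7.58 to 7.86 with a median of 7.76. The ranges met where the wildtype animal of litter 4 lay beside the KIS-ko animal of litter 1, and in each of the 6 litters the KIS-ko littermate was the lower one, by 0.07 in litter 4 and by up to 0.62 in litter 6. All 13 probesets were lower, 8 with an unadjusted p under 0.05 (gene log2 difference -0.32, SE 0.071, limma adjusted p = 0.528). Its median probeset signal of 209 was below the intron control limit of 713, and so was that of Swt1, 276.

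Swt1 ran from 8.05 to 8.57 with a median of 8.35 in wildtype and from 7.93 to 8.28 with a median of 7.99 in KIS-ko brains. All of its 21 probesets were lower, from -0.69 to -0.05, and 5 of 6 litters went this way (log2 difference -0.30, SE 0.092, limma adjusted p = 0.685). The exception was litter 4, where the wildtype animal had the lowest wildtype value and the KIS-ko animal the highest KIS-ko value. Its neighbours Ivns1abp and Rnf2, a ubiquitin ligase of the Polycomb complex, had differences of -0.04 and -0.0035. Cep350, a centrosomal protein, showed the same reversal in litter 4: its values were 9.58 to 9.76 (median 9.69) in wildtype and 9.33 to 9.76 (median 9.41) in KIS-ko brains, with a difference of -0.21 (SE 0.066) over 6 probesets. The median of all probesets was itself above 0 in litter 4 alone, at 0.071.

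**Figure D4:**
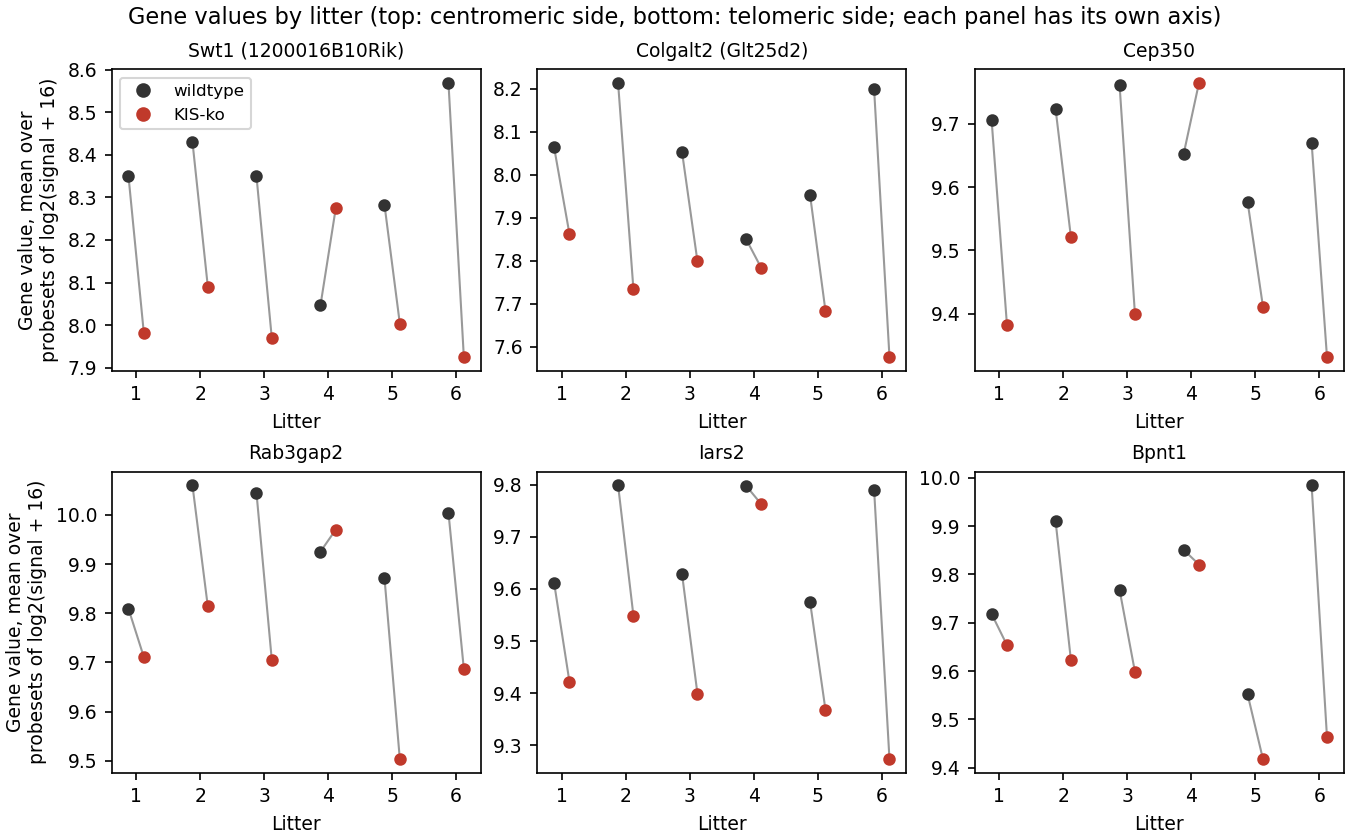
Gene values (mean over probesets of log2(signal + 16), vertical axes, each panel with its own range) of 3 centromeric and 3 telomeric genes in the wildtype and KIS-ko littermate of each of 6 litters (horizontal axis); lines join littermates. KIS-ko lies lower in 5 or 6 of 6 litters in each panel, and litter 4 shows the smallest or the opposite difference. The median of all probesets was above 0 in litter 4 alone (0.071).

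Further centromeric genes with an unadjusted p under 0.05 were Tor3a (-0.14, lower in 5 of 6 litters), an ATPase of the endoplasmic reticulum, and Ralgps2 (-0.12, 5 of 6), an exchange factor for the G protein Ral. Each had a limma adjusted p of 0.685. Tor3a was dim, with a median signal of 219, and its 1 probeset above the intron control limit had 0.094. Among the 10 genes of lowest p, Pdc, a phosphoprotein of photoreceptors, and Gm5531 had higher values in KIS-ko brains (0.21 and 0.17), with unadjusted p of 0.071 and 0.074 and 4 of 6 litters each. Mrps14, a protein of the mitochondrial ribosome, and Tsen15, a subunit of the tRNA splicing endonuclease, had -0.18 and -0.09. Of the 5 probesets of Mrps14 only 3 lie on this side, with 1 at -0.44, at a mean signal of 186 and so under the intron control limit, and the other two slightly above 0, so its gene value also rests on probesets that the table places elsewhere.

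Some single probesets on the centromeric side departed from the rest of their gene. Lamc1, a laminin chain found in most basement membranes, had a gene difference of -0.06 over 29 probesets, of which 5 had an unadjusted p under 0.05, from -0.75 to 0.19. The one of lowest p, at 155073525, had -0.62 (SE 0.12). Its 6 wildtype values lay between 10.78 and 11.05. In the KIS-ko animals of litters 1 to 6 it had 10.80, 10.24, 10.09, 10.17, 10.67 and 9.97. Litters 1 and 5 were thus close to wildtype and the other litters well below it.

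Rgl1, an exchange factor for Ral, held a probeset at 154378653 of the same form. Its wildtype values were 10.98 to 11.32, and its KIS-ko values in litters 1 to 6 were 10.98, 10.21, 10.08, 10.32, 10.99 and 10.01 (difference -0.68, SE 0.16). Litters 1 and 5 again sat at the lower edge of the wildtype range and the other 4 well below it. A probeset of Ralgps2 at 158814673 had 11.19, 10.60, 10.67, 10.85, 11.15 and 10.29 in KIS-ko litters 1 to 6, against 11.17 to 11.48 in wildtype (difference -0.56, SE 0.14). Once more litters 1 and 5 were the highest. The probesets were among the 10 of lowest p on their side and were picked out after their values had been seen, so the shared order of litters is a description with no test.

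Another Rgl1 probeset, at 154364740, with a mean signal of 450.4, under the intron control limit, had a value of the other sign. It had 8.08 to 9.01 (median 8.23) in wildtype and 8.76 to 9.48 (median 9.18) in KIS-ko brains, and KIS-ko was the higher littermate in 6 of 6 litters, though by little in litter 1 (difference 0.80, SE 0.16, limma adjusted p = 0.600). Over all 26 probesets the gene had -0.07. For these genes the probesets did not move as 1 transcript level, and what set these probesets apart was not tested.

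**Figure D5:**
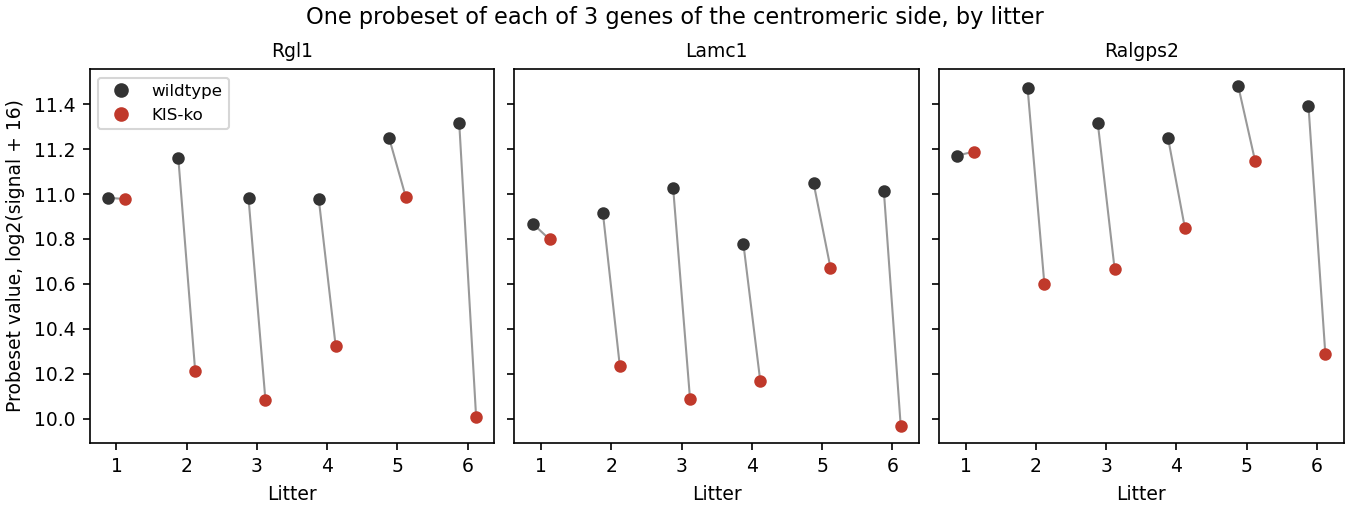
Values (log2(signal + 16), vertical axis) of 1 probeset each of Rgl1, Lamc1 and Ralgps2 in the wildtype and KIS-ko littermate of 6 litters (horizontal axis). In litters 1 and 5 the KIS-ko animal is close to the wildtype range, and in litters 2, 3, 4 and 6 it lies below it.

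On the telomeric side the row of Rab3gap2, Iars2 and Bpnt1, the genes whose upstream sequences are given above, held 33 of the 86 probesets with an unadjusted p under 0.05. Iars2 had 9.57 to 9.80 (median 9.71) in wildtype and 9.27 to 9.76 (median 9.41) in KIS-ko brains. It was lower in the KIS-ko littermate in 6 of 6 litters, by 0.04 in litter 4 and 0.52 in litter 6, and in 24 of 26 probesets (log2 difference -0.24, SE 0.061, limma adjusted p = 0.685). Its 13 probesets with an unadjusted p under 0.05 were all lower.

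Rab3gap2 had 9.81 to 10.06 (median 9.96) in wildtype and 9.50 to 9.97 (median 9.71) in KIS-ko brains. It was lower in 27 of 28 probesets and in 5 of 6 litters, the exception being litter 4 with 0.05 (log2 difference -0.22, SE 0.063, limma adjusted p = 0.685). The median of all probesets was itself 0.071 in litter 4 and -0.12 in litter 6, so the counts of litters by gene also carry this offset. Bpnt1 had 9.55 to 9.98 (median 9.81) and 9.42 to 9.82 (median 9.61), and was lower in 9 of 11 probesets and in 6 of 6 litters (-0.20, SE 0.067). These 3 genes, whose median probeset signals (945, 770 and 787) were above the intron control limit, lay between genes that did not share their direction and size. Mark1, a kinase of microtubule-associated proteins and the neighbour nearer to Uhmk1, had -0.0049 over 23 probesets. Farther out Lyplal1, a serine hydrolase, had 0.12 at a median probeset signal of 497, under the intron control limit. Tgfb2, a growth factor, had -0.02 over 19 probesets.

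The remaining telomeric genes with an unadjusted p under 0.05 included Lin9 (-0.17, 4 of 6 litters), a subunit of a complex that controls cell cycle genes, Gpatch2 (-0.13, 14 of 14 probesets, 6 of 6 litters) and Smyd2 (-0.11, 15 of 15 probesets, 5 of 6 litters), a lysine methyltransferase. The predicted gene Gm5069 was the 1 gene higher in KIS-ko brains, with 7.11 to 7.75 (median 7.55) in wildtype and 7.62 to 7.96 (median 7.79) in KIS-ko (0.29, SE 0.082, limma adjusted p = 0.685). It has 2 probesets, both dim, and its littermates were equal to 2 decimals in litter 6. Fbxo28, Psen2 and Mosc2 (Mtarc2 in RefSeq), the others of the 10 of lowest p, had -0.15, -0.10 and -0.12. Their median probeset signals were 645, 296 and 430, all under the intron control limit. Psen2, a catalytic subunit of gamma-secretase and one of the genes of familial Alzheimer disease, was the lower one in KIS-ko in 6 of 6 litters. In litter 5, however, the differences of Gpatch2 (-0.0021) and Psen2 (-0.039) lay above the median of all probesets (-0.044).

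Single telomeric probesets with values unlike those of their genes were a D1Pas1 probeset at 188791383, of a testis-expressed RNA helicase gene, with 6.73 to 7.25 in wildtype and 7.16 to 7.64 in KIS-ko brains (0.46, SE 0.07, unadjusted p = 1.1e-04, limma adjusted p = 0.328), and another of the same gene at 188794168 with -0.45. The gene value was -0.08. Both probesets were under the intron control limit of 713, with mean signals of 134 and 47.7, the second also under the median intron control (114), so neither value is a difference measured above background. A probeset of Parp1, the DNA damage sensor, at 182531215 had 7.97 to 8.33 in wildtype and 7.31 to 7.92 in KIS-ko brains (-0.47, SE 0.11) at a mean signal of 233, also under that limit, while the median of its other 27 probesets was -0.05. Spata17 had a probeset with -0.49 (SE 0.11) at a mean signal of 46, under the median intron control, and a gene value of 0.01.

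Grouped by function, no list held a gene past the adjusted threshold in limma, and the lists were not tested against each other. The members with an unadjusted p under 0.05 all had values under 0, and of all genes tested 4.34% had both such a p and a value under 0. Of the proteins of the nuclear envelope and endoplasmic reticulum 9 were measured, all with values under 0, and 1 (Tor3a) had an unadjusted p under 0.05. Their median was -0.08, against -0.036 for all genes, of which 69.8% were under 0. In translation and RNA processing 7 of 7 were under 0 (median -0.08) with 1 (Iars2) at that level, and in transcription and chromatin 7 of 10 (median -0.04) with 3 (Swt1, Lin9 and Smyd2). Of 10 matrix and secreted proteins 8 were under 0 with 1, of 4 regulators of G proteins 3 with 1 (Ralgps2), and of 4 genes of cell division 3 with 1 (Cep350); their medians were -0.05, -0.06 and -0.10. Of 11 neuronal genes 9 were under 0 (median -0.01) and none had an unadjusted p under 0.05. Their values ran from -0.10 for Esrrg, an orphan nuclear receptor, to 0.03. Astn1, an adhesion protein of migrating neurons, had -0.0010 over 30 probesets, and Nmnat2, an enzyme that maintains axons, had -0.025.

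The genes nearest to the boundaries are given by their values, with no test of the one side of a limit against the other. On the centromeric side Tnn, Tnr and Mrps14, the members nearest to the inner boundary, had 0.06, 0.01 and -0.18, and Cacybp, just outside, had -0.15. On the telomeric side Psen2, Gm5069 and Parp1 had -0.10, 0.29 and -0.09, and Cabc1, just outside, had -0.03. At the outer boundaries Pdc, BC003331 and Tpr, a protein of the nuclear pore basket, had 0.21, -0.10 and -0.04, and Smyd2, Ptpn14 and the homeobox gene Prox1 had -0.11, -0.11 and -0.05. Rps6kc1, the next gene past the telomeric limit, had -0.07. The signs of Tpr and Prox1 turned when arrays were centred on their medians (0.01 each), as their values were near the median of all genes.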

How the data were processed

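RNA of 12 newborn brains was measured on mouse exon arrays (Exon 1.0 ST, Affymetrix), 1 array per brain. Quantile normalization at exon level and PLIER summaries were made by the authors in the Expression Console software, and the deposited table holds the resulting linear signal intensity of each probeset and array. The genome build of its positions is not given in the sources used here. Groups and litters came from the labels. No 2 arrays were identical (r from 0.978 to 0.992). The number of arrays limits the precision.

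Main probesets with a relative standard deviation of at most 0.4 in both genotypes (206773) were kept, and log2(signal + 16) was fitted with limma 3.58.1 in R 4.3.3, with a term for litter, eBayes moderation and p-values adjusted by Benjamini-Hochberg over the whole table (threshold 0.05). Gene values were means over kept probesets of a symbol (17279 genes). Of the member symbols, 4 (Cox7b, Csnk2a1, Pdcd5, Rpl35a) had most probesets elsewhere and no gene value. Single values per litter went into an exact two-sided permutation test that flips their signs. The labels give each pair of littermates its litter; deviations from the genotype means correlated within litters by -0.093 to 0.325, against a mean of -0.015 between litters. Scripts were tested on simulated data, and plots drawn with matplotlib 3.10.9.

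Named were, on each side, the 10 genes of lowest p, the 3 genes nearest to each boundary, Uhmk1 and examples of lists of genes by role; single probesets, stretches and neighbours were chosen after their values were seen. The stretches, members and lists were chosen with earlier results of these data known. Some genes are not reported here. Gene names in the table are old for 11 of 105 symbols, and 102 matched RefSeq. Alternatives were no litter block, other pseudocounts, filters, array scales and moderation, probesets matching 1 place or carrying a symbol, and each litter left out.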

Additional observations from a re-analysis of the deposited data

Results flagged for a closer look

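Of 102 groups of 6 litter or array values examined, 1 held a value far from the others, where chance alone marks about 1 in 20 groups. On the centromeric flank, within 10 Mb of Uhmk1, the mean difference relative to the median probeset was -0.057 in litter 5, against -0.024 to -0.0077 in the other 5 litters.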

How the results depend on the processing

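Of the recomputed values of the main comparisons, 220 kept their direction and their side of the threshold, and those that did not are given here. The fit without the replicate block gave unadjusted p under 0.05 to 9.57% of centromeric and 10.9% of telomeric members, against 5.80% of all probesets, and it called no member gene or probeset, so that the pairing changed no call. With trend and robust moderation the count of members called was 2 on each side, where 92 of all 206773 probesets were called. The log2 spread ratio of the telomeric side was -0.016 with a pseudocount of 1, and that of the centromeric side 0.026 with a pseudocount of 64. Without dim probesets the centromeric mean difference was 0.00072, the centromeric log2 spread ratio 0.056 and the telomeric one 0.15 (exact sign-flip p = 0.03125). Leaving out each litter in turn gave shares of 5.98% to 19.9% on the centromeric and 7.55% to 22.2% on the telomeric side, log2 spread ratios of -0.034 to 0.010 and -0.0048 to 0.028, a telomeric mean difference of -0.023 to -0.018, and flank minus side differences of 0.22 to 0.25 (centromeric) and 0.37 to 0.43 (telomeric); with 5 litters the exact test cannot go below 0.0625. Single genes that changed sign were Tnr (-0.064 without the relative standard deviation filter, and from -0.014 to 0.033 with a litter left out), Mrps14 (0.014 at a limit of 0.2), Tor3a (0.094) without dim probesets, with 1 probeset left, Tpr (0.013) and Prox1 (0.010) with arrays centred, and Prox1 with a litter left out (from -0.11 to 0.015). The causes were not tested. Dim signals limit genes such as Swt1, Glt25d2 and Tor3a, whose median probesets lie under the intron control limit.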
